A study of Mus musculus with 69 samples.

Results

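The 10 genes described here encode the NF-kappaB transcription factor subunits and the proteins that switch them off: Rela, Rel, Relb, Nfkb1 and Nfkb2 (subunits), Nfkbia, Nfkbiz, Tnfaip3 and Bcl3 (inhibitors and modulators), and the inducing cytokine Tnf. They were taken by gene symbol from a table of 24411 genes counted in 69 mouse kidney libraries. All 10 were in the table and passed its count filter, with which 21175 genes were tested.

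NF-kappaB is a dimer of Rel-family proteins held in the cytoplasm by inhibitor proteins such as the product of Nfkbia. Cytokine, microbial or stress signals activate a kinase complex that marks the inhibitor for destruction, after which the dimer enters the nucleus and induces inflammatory genes. Nfkbia, Tnfaip3 and several subunit genes are themselves induced by NF-kappaB, which gives the pathway its negative feedback. In the injured kidney the pathway is known from tubule cells as well as from infiltrating leukocytes.

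The study asked which transcripts single segments of the mouse kidney make after different injuries. Mice carried a uracil phosphoribosyltransferase transgene behind a stop cassette, which Cre removed under the Hoxb7 promoter (genotype Hoxb7Cre;UPRTf/+, collecting duct lineage) or under the promoter of a proton pump subunit (Atp6b1v1Cre;UPRTf/+ in the labels' spelling, intercalated cells). All mice, controls included, received 4-thiouracil (4-TU, 430 mg/kg intraperitoneally) 4 h before dissection, so that cells with the enzyme made thiol-tagged RNA, which was biotinylated and pulled down. The 2 injuries were bilateral renal ischemia (iAKI) and volume depletion by withdrawal of food and water (vAKI). The comparisons of injuries rest on 22 pulldown libraries of males of 5.5 months: 4 control, 4 iAKI and 3 vAKI libraries of Hoxb7Cre mice, and 4 control, 3 iAKI and 4 vAKI libraries of Atp6b1v1Cre mice. Females of the same age gave 4, 3 and 4 Hoxb7Cre libraries and 4, 3 and 3 Atp6b1v1Cre libraries. The 42 control libraries also held unselected whole kidney RNA of both genotypes (21 Total libraries, 8 of each sex at 5.5 months and 5 at 3 months) and pulldowns of 3-month mice (2 female Hoxb7Cre, 3 male Atp6b1v1Cre).

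Libraries held 12618062 to 30305464 counts (median 20868430). The labels number the libraries in 3 separate stretches of consecutive numbers, called runs A, B and C here, and do not state what libraries of a run shared. All treated Hoxb7Cre libraries were of run A, whereas their 4 male controls were 2 of run A and 2 of run B, and their 4 female controls were 1 of run A, 1 of run B and 2 of run C. Among female Hoxb7Cre controls all 10 genes were higher in runs B and C than in run A (median log2 difference 1.05). Among male Hoxb7Cre controls all 10 were higher in run B (median 0.47). The share of all genes that differed so between runs was not counted, so the shift is not shown to be particular to the 10 genes. The median difference was 0.45 in male and 0.04 in female Atp6b1v1Cre controls. Results that rest on such libraries are therefore given with and without them. Male and female libraries matched their labelled sex in all 69 cases. Xist was at no more than 3.46 CPM (a gene's reads per fixed number of library reads, with TMM-scaled library sizes) in males and at no less than 599 CPM in females. Nothing in the labels says that control pulldown and Total libraries came from separate mice, and the fit took them as independent, so p-values measure only the spread between libraries.

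NF-kappaB dimers bind a known DNA motif, the kappaB consensus of 10 letters. The promoters of 4 genes are shown because these 4 are the members with a match to it in a window read. Bcl3 and Rela, which also rose after volume depletion, had windows without a match and are not shown. The windows are the 250 bases before an annotated start in RefSeq (GRCm38.p6), read 5′ to 3′ on the gene's strand. A start can lie inside the gene's outer coordinates, as it does for the Nfkb2 window shown. Capitals mark matches to the kappaB consensus on either strand, and overlapping matches are merged.
Tnfaip3 (chr10:19015411-19015660, minus strand): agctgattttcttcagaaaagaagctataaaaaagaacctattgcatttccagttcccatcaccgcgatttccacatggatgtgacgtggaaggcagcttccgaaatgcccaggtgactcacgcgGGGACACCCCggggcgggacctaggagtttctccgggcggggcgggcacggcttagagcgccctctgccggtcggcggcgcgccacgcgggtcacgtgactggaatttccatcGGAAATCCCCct
Rel (chr11:23770970-23771219, minus strand): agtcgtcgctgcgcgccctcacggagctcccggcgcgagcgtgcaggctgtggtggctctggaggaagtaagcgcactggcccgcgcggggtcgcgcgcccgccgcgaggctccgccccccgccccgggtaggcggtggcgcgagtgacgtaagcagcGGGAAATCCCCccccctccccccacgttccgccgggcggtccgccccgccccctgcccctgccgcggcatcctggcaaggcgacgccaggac
Nfkbia (chr12:55492648-55492897, minus strand): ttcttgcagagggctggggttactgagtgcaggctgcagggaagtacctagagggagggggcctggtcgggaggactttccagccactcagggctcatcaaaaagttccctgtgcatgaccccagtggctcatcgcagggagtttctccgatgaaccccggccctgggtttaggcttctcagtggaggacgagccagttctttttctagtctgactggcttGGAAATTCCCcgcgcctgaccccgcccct
Nfkb2 (chr19:46304487-46304736, plus strand): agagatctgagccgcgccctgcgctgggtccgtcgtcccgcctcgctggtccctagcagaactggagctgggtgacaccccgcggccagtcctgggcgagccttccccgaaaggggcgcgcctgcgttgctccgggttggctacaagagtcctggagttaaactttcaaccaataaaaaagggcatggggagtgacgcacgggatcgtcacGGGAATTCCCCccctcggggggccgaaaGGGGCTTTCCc
The subunit genes lie at chr19:5637442-5648134 (Rela), chr11:23736847-23770969 (Rel), chr7:19606217-19629438 (Relb), chr3:135584655-135691969 (Nfkb1) and chr19:46300994-46312400 (Nfkb2). The others lie at chr12:55489409-55492647 (Nfkbia), chr16:55811375-55838954 (Nfkbiz), chr10:19000910-19015410 (Tnfaip3), chr7:19808462-19822824 (Bcl3) and chr17:35199367-35202007 (Tnf). The consensus was found in 2382 of all 32851 promoters of this length (7.25%). RefSeq gave 10 promoters for 7 of the 10 genes, and 6 of these promoters, of 4 genes, held it. The windows of Rela, Bcl3 and Tnf and a second one of Tnfaip3 held no match, which says only that these letters are not in those windows. The Rela and Bcl3 windows reach into the genes' outer coordinates, and the second Tnfaip3 window lies within its gene. Nfkb1, Relb and Nfkbiz had no window in the table.

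After volume depletion, 9 of the 10 genes rose in pulldowns of male Hoxb7Cre mice, and 8 of them were differentially expressed genes (DEGs), with an adjusted p below 0.05 and a change of 1 or more on the log2 scale in either direction. Of all 21175 genes, 9.61% were DEGs in the upward direction and 17.9% rose at the adjusted p alone. The median log2 fold change was 1.97 over the 10 genes and 0 over all genes. Nfkb1 passed under the fold threshold, and Tnf, which was barely counted, did not pass. With run A alone the same 8 genes were DEGs, where 18.9% of all genes were DEGs in either direction. Among females of the same genotype, fitted alone, the count was 0, where 0.0992% of all genes were DEGs in either direction. Values of single libraries are given in the order of their replicate numbers, which puts run A before run B. In bulk pulldowns, fewer cells of a type and less RNA per cell cannot be told apart. All adjusted p-values come from quasi-likelihood fits in edgeR, adjusted by Benjamini and Hochberg's method over the genes tested.

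Among the subunits, Rel, which encodes the c-Rel transactivating subunit, had the largest fold change. Rel was at 6.40, 2.42, 5.68 and 5.11 CPM in controls and at 28.9, 25.6 and 21.6 CPM after volume depletion. Every depleted library lay above every control, at 5.17-fold on average in the fit (log2 fold change 2.37, SE 0.28, 95% interval 1.78 to 2.96, adjusted p = 1.88e-06). Relb, which encodes the subunit of the noncanonical arm, was at 8.13, 7.51, 15.0 and 10.9 CPM in controls and at 25.2, 50.04 and 48.6 CPM in depleted mice. Its groups did not overlap, with the lowest depleted library above the run B control that was highest (2.00, SE 0.37, 95% interval 1.24 to 2.76, adjusted p = 0.000194).

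Rela, the main transactivating partner of the canonical dimer, was at 55.5, 52.5, 81.2 and 69.7 CPM in controls and at 109, 165 and 163 CPM after volume depletion. Its rise was smaller and again without overlap (1.18, SE 0.19, 95% interval 0.78 to 1.58, adjusted p = 6.26e-05). Nfkb2, whose precursor is processed in the noncanonical arm, went from 33.2, 32.9, 33.6 and 38.6 CPM to 48.0, 90.8 and 83.97 CPM. Depleted replicate 4 was well below the other 2 and still above all controls (1.11, SE 0.22, 95% interval 0.64 to 1.57, adjusted p = 0.00052). Without replicate 6 of this group the value was 0.94 and under the fold threshold. Nfkb1, which encodes the DNA-binding partner of Rela and its precursor, was at 78.5, 72.0, 88.4 and 82.2 CPM and then at 100.2, 124 and 105 CPM. It rose by the least of the 5 subunits, and its groups did not overlap (0.46, SE 0.13, 95% interval 0.19 to 0.73, adjusted p = 0.00811).

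The log2 fold changes of the 4 inhibitor and modulator genes ran from 1.94 (Nfkbiz) to 2.80 (Bcl3). Rel (2.37) and Relb (2.00) lay within this range and Rela, Nfkb1 and Nfkb2 below it, without a test between genes. Tnfaip3, which encodes a ubiquitin-editing enzyme that shuts off signalling upstream of the kinase, was at 21.8, 12.8, 24.3 and 24.9 CPM in controls and at 98.2, 100.2 and 164 CPM after volume depletion. The depleted libraries were far above the controls (2.53, SE 0.30, 95% interval 1.90 to 3.16, adjusted p = 1.92e-06). Nfkbia, which encodes the inhibitor that retains the dimer in the cytoplasm, was at 32.1, 29.2, 70.7 and 59.0 CPM in controls and at 168, 231 and 213 CPM in depleted mice. The 2 run B controls were above the 2 run A controls, and all 4 were below the depleted libraries (2.10, SE 0.38, 95% interval 1.32 to 2.88, adjusted p = 0.000153).

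Nfkbiz encodes an inducible nuclear member of the inhibitor family that acts as a cofactor of selected target genes. It was at 33.1, 30.8, 47.0 and 41.2 CPM in controls and at 139, 135 and 164 CPM after volume depletion, and the depleted libraries lay close together above all controls (1.94, SE 0.33, 95% interval 1.26 to 2.63, adjusted p = 9.23e-05). Bcl3, another nuclear member that binds homodimers of the DNA-binding subunits, was at 2.87, 1.74, 3.85 and 4.36 CPM and then at 13.3, 16.9 and 36.8 CPM. Its depleted libraries spread widely, with replicate 7 the highest, and did not overlap with controls (2.80, SE 0.55, 95% interval 1.67 to 3.93, adjusted p = 0.000352). In all, 9 of the 10 genes were higher in every depleted library than in every control, which was the case for 19.7% of all genes.

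Tnf, the classic activator of the pathway and one of its target genes, was near the limit of counting. Male Hoxb7Cre controls held 6, 2, 4 and 7 reads of Tnf, iAKI libraries 3, 9, 0 and 2 and vAKI libraries 1, 5 and 6. Atp6b1v1Cre controls held 2, 4, 10 and 3, iAKI libraries 19, 6 and 11 and vAKI libraries 11, 6, 12 and 2. Several of these values were at or under 3 counts, the upper limit that a count of 0 allows, and the groups overlapped throughout. No change of Tnf passed in the fit of males. The 95% interval of its log2 fold change after volume depletion was -2.04 to 1.23 in Hoxb7Cre and -0.55 to 2.24 in Atp6b1v1Cre males. After ischemia it was -2.02 to 1.05 and -0.17 to 2.66.

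**Figure D1:**
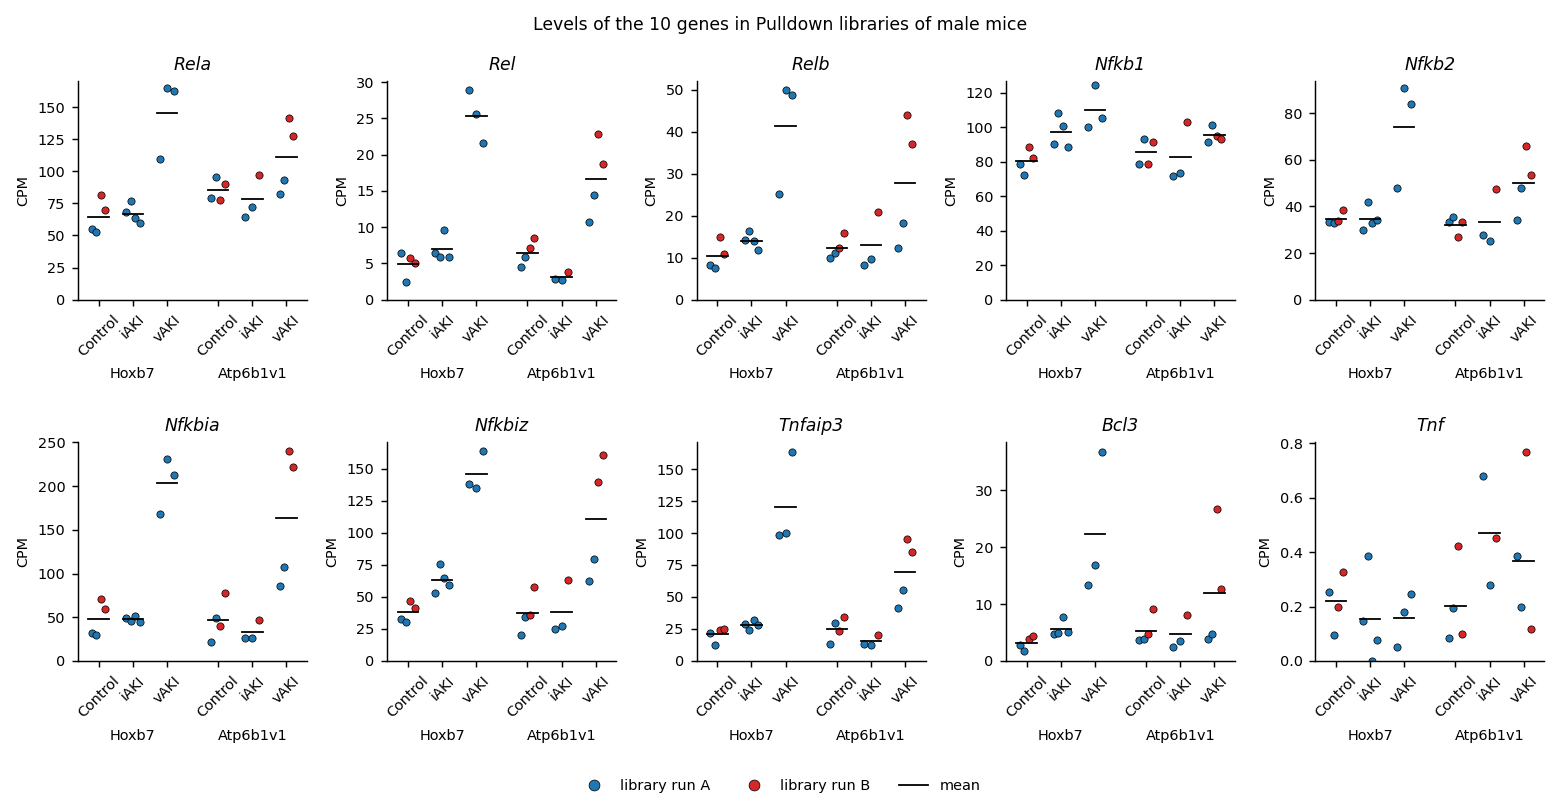
CPM (linear axes, each scaled to its gene) of the 10 genes in the 22 male pulldown libraries, by driver and treatment, with points coloured by library run and a line at each group's mean. In vAKI of Hoxb7Cre mice all 3 points lie above all 4 controls for every gene but Tnf, which was counted 0 to 19 times per library.

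In pulldowns of male Atp6b1v1Cre mice, 6 of the 10 genes rose after volume depletion and 5 were DEGs, namely Rel, Relb, Nfkbia, Nfkbiz and Tnfaip3. Of all genes, 3.45% were upward DEGs and 8.11% rose at the adjusted p alone. The median log2 fold change was 1.17 over the 10 genes and 0 over all genes. With run A alone 4 genes were DEGs, the 5 without Relb, where 3.12% of all genes were DEGs in either direction. Females of this genotype, fitted alone, also gave 5 DEGs, where 9.89% of all genes were DEGs in either direction.

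Nfkbia, Nfkbiz and Tnfaip3 had the largest fold changes in this genotype, without a test between genes. Nfkbia was at 21.2, 49.1, 40.1 and 77.7 CPM in controls and at 85.2, 108, 239.7 and 222 CPM after volume depletion. All depleted libraries were above all controls, although the lowest, of run A, exceeded the highest control, of run B, only slightly (1.81, SE 0.36, 95% interval 1.07 to 2.54, adjusted p = 0.00196). Nfkbiz was at 20.1, 34.6, 36.1 and 57.6 CPM and then at 62.8, 79.9, 139.8 and 161 CPM. Run B libraries were above run A libraries in both groups, and the groups did not overlap (1.59, SE 0.31, 95% interval 0.94 to 2.24, adjusted p = 0.00197). Tnfaip3 was at 13.5, 29.8, 23.4 and 34.3 CPM in controls and at 41.1, 55.6, 95.4 and 84.8 CPM in depleted mice, again without overlap (1.47, SE 0.28, 95% interval 0.88 to 2.05, adjusted p = 0.00167).

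Rel was the subunit with the largest rise in this genotype too, from 4.48, 5.91, 7.12 and 8.47 CPM in controls to 10.7, 14.4, 22.8 and 18.7 CPM. The groups did not overlap (1.36, SE 0.26, 95% interval 0.81 to 1.91, adjusted p = 0.00175). These 4 genes were the ones higher in every depleted library, a pattern that 7.05% of all genes showed. Relb was at 9.80, 11.0, 12.3 and 15.8 CPM and then at 12.3, 18.2, 44.0 and 37.0 CPM. The lowest depleted library lay among the controls, and the 2 of run B were well above all of them (1.19, SE 0.34, 95% interval 0.48 to 1.90, adjusted p = 0.0224). Its difference was 0.50 within run A and 1.496 within run B, and the call was lost without any of 5 libraries (controls 6, 9 and 10, vAKI 6 and 7, adjusted p from 0.0547 to 0.116). Nfkb2 rose under the fold threshold (0.65, SE 0.21, 95% interval 0.22 to 1.09, adjusted p = 0.039), by 0.23 within run A and 0.97 within run B.

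The other genes did not pass in Atp6b1v1Cre males. Bcl3 was at 3.60, 3.87, 4.79 and 9.08 CPM in controls and at 3.87, 4.70, 26.7 and 12.56 CPM after volume depletion, where the 2 run A libraries were among the controls and the 2 run B libraries above them (log2 fold change 1.15, SE 0.50, 95% interval 0.12 to 2.18, adjusted p = 0.129). Without depleted replicate 1 it passed (1.45, adjusted p = 0.0346). Rela had a log2 fold change of 0.39, SE 0.18, 95% interval 0.02 to 0.77, adjusted p = 0.152, with values of 82.6, 93.7, 141 and 128 CPM against 79.0, 96.0, 77.7 and 90.1 CPM in controls. Its difference was 0.01 within run A and 0.68 within run B. Nfkb1 was at 91.2, 101, 94.8 and 93.4 CPM after volume depletion and at 78.9, 92.9, 78.6 and 91.2 CPM in controls, with groups that overlapped (0.17, SE 0.12, 95% interval -0.08 to 0.42, adjusted p = 0.371). The part of the library run in these values was not tested apart from these within-run differences.

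Ischemia moved few of the 10 genes. In Hoxb7Cre males none passed at the adjusted p in edgeR (0 of 10, 2 at an unadjusted p under 0.05). Of all genes, 2.3% were DEGs and 6.13% passed at the adjusted p alone. DESeq2 gave 0 DEGs among the 10, where 2.81% of all genes were DEGs. In 3 genes every ischemic library was higher than every control, which held for 8.2% of all genes. These were Nfkb1 (log2 fold change 0.28, SE 0.12, 95% interval 0.03 to 0.53, adjusted p = 0.177), Nfkbiz (0.74, SE 0.31, 95% interval 0.10 to 1.38, adjusted p = 0.165) and Bcl3 (0.82, SE 0.52, 95% interval -0.25 to 1.89, adjusted p = 0.395). Nfkbiz was at 53.1, 75.6, 64.4 and 59.0 CPM in ischemic libraries, each of them above the highest control. Nfkbia was at 49.6, 46.2, 50.9 and 44.6 CPM, between the run A and the run B controls, with a 95% interval of -0.71 to 0.73 for its log2 fold change. The count changed with the library run: with run as a covariate Nfkbiz and Bcl3 were DEGs, and with run A alone Bcl3 was. Of all genes, 4.24% and 3.23% were then DEGs. The cause was not tested.

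In Atp6b1v1Cre males Rel alone passed after ischemia, and it fell. Downward DEGs were 1.68% of all genes, and 4.74% fell at the adjusted p alone. Rel was at 4.48, 5.91, 7.12 and 8.47 CPM in controls and at 2.87, 2.68 and 3.78 CPM in ischemic mice, all 3 of them below the lowest control, as for 9.54% of all genes (log2 fold change -1.07, SE 0.30, 95% interval -1.70 to -0.45, adjusted p = 0.0286). The call did not stand without ischemic replicate 1 or 4 (-1.002, adjusted p = 0.134, and -0.97, adjusted p = 0.113) or without control replicate 10 or 11 (-1.03, adjusted p = 0.0539, and -0.91, adjusted p = 0.0915), nor with run A alone (-0.91, adjusted p = 0.0944). With run as a covariate Rel passed at the adjusted p and was under the fold threshold (-0.97, adjusted p = 0.0119). The difference was -0.79 within run A and -0.95 within run B. Tnfaip3 was at 13.4, 12.1 and 20.4 CPM and Nfkbia at 26.4, 26.2 and 47.1 CPM after ischemia, both overlapping with controls and without a call (-0.73, SE 0.31, 95% interval -1.37 to -0.09, adjusted p = 0.146 for Tnfaip3).

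The 2 injuries were then tested against each other, since a call after 1 injury only does not show a difference. The same control libraries serve both injuries of a genotype and cancel in this test. In Hoxb7Cre males 8 of the 10 genes were DEGs with higher levels after volume depletion than after ischemia, against 8.15% of all genes. The differences in log2 level were 2.09 for Tnfaip3, 2.08 for Nfkbia, 1.98 for Bcl3, 1.86 for Rel, 1.55 for Relb, 1.20 for Nfkbiz, 1.11 for Rela and 1.08 for Nfkb2, with adjusted p-values from 1.67e-05 to 0.00638. Without depleted replicate 7 Bcl3 did not pass (1.41, adjusted p = 0.0684), and Nfkb2 was under the fold threshold without depleted replicate 6 or 7 (0.92 and 0.99). Nfkb1 did not pass (0.17, SE 0.13, 95% interval -0.10 to 0.44, adjusted p = 0.337). In Atp6b1v1Cre males 5 genes were such DEGs, against 7.16% of all genes. They were Rel (2.43), Nfkbia (2.32), Tnfaip3 (2.20), Nfkbiz (1.55) and Relb (1.12), with adjusted p-values from 9.06e-06 to 0.0273. Relb lost its call without ischemic replicate 1 or 4 or depleted replicate 6 or 7 (adjusted p = 0.152, 0.124, 0.115 and 0.079). With run as a covariate (0.94) or with run A alone (0.78) Relb passed at the adjusted p and was under the fold threshold. With only the groups compared in the fit Relb did not pass (1.12, edgeR adjusted p = 0.124). Rela (0.53) and Nfkb2 (0.61) passed under the fold threshold, for 7 genes higher at the adjusted p alone beside 15% of all genes. Bcl3 passed without depleted replicate 1 or 2 or ischemic replicate 5 (1.65, 1.63 and 2.00), with run as a covariate (1.01) and with both sexes (1.55).

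**Figure D2:**
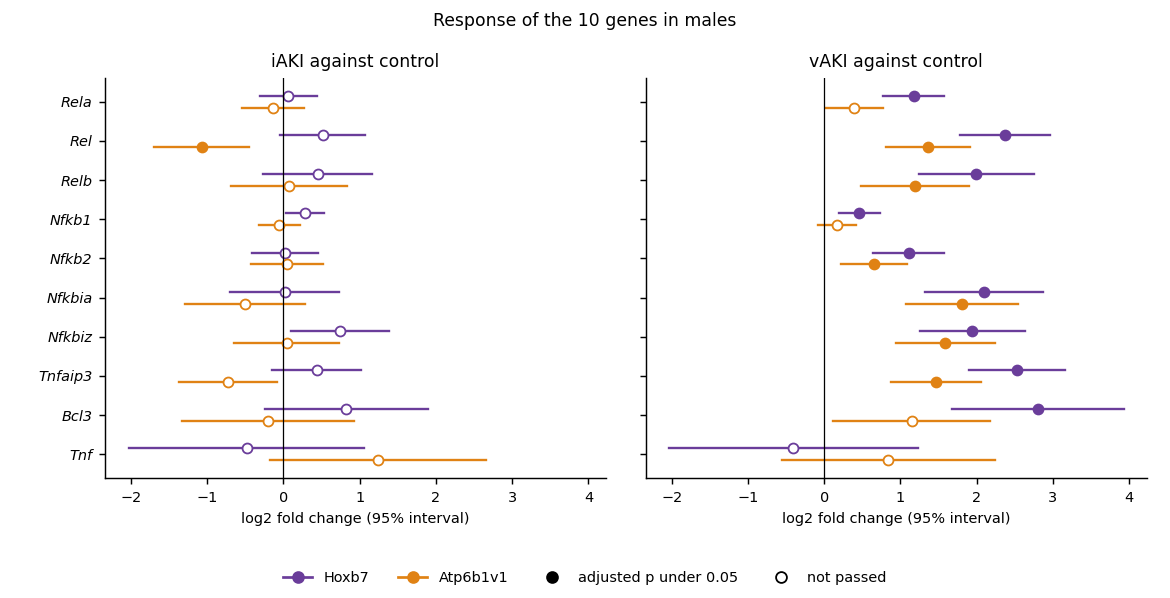
Log2 fold change (x axis) of the 10 genes after ischemia and after volume depletion in male pulldowns, 1 colour for each driver, with 95% intervals and filled symbols for adjusted p under 0.05. After volume depletion 9 Hoxb7Cre and 6 Atp6b1v1Cre symbols are filled, all to the right of 0, and after ischemia only Rel in Atp6b1v1Cre mice is filled, at -1.07.

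The same injury was compared between the 2 genotypes by the difference of their log2 fold changes, Atp6b1v1Cre minus Hoxb7Cre. After volume depletion 0 of the 10 differences passed by edgeR and 0 by DESeq2 (4 at an unadjusted p under 0.05), beside 4.2% of all genes. Of the differences 9 were negative, the largest in size being Bcl3 at -1.65, SE 0.73, 95% interval -3.16 to -0.14, adjusted p = 0.217, Tnfaip3 at -1.06, SE 0.41, 95% interval -1.91 to -0.22, adjusted p = 0.149 and Rel at -1.01, SE 0.38, 95% interval -1.80 to -0.21, adjusted p = 0.145. Nfkbia differed by -0.29, SE 0.51, 95% interval -1.34 to 0.76, adjusted p = 0.857. With library run as a covariate, 7 genes passed, all lower in Atp6b1v1Cre, and 12.5% of all genes did. Among them Bcl3 was at -2.63 (adjusted p = 0.00148), Rela at -1.04 (adjusted p = 0.0028) and Nfkbia at -0.97 (adjusted p = 0.0342). With run A alone, chosen after the levels of the runs were seen, 5 genes passed, beside 14.7% of all genes. Leaving out single libraries brought Rela past the threshold without Hoxb7Cre vAKI replicate 4 (-0.94), Hoxb7Cre control replicate 4 (-0.92) or Atp6b1v1Cre vAKI replicate 6 (-0.92), and Bcl3 without the last of these (-2.42). The cause of the change with run was not tested.

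After ischemia the response of Rel differed between the genotypes (-1.58, SE 0.40, 95% interval -2.42 to -0.75, adjusted p = 0.0191). It was the only 1 of the 10 genes to pass, beside 4.11% of all genes in this direction. Rel was at 9.59 CPM in 1 ischemic Hoxb7Cre library and lay at 5.92 to 6.38 CPM in the other 3, while the 3 ischemic Atp6b1v1Cre libraries were at 2.68 to 3.78 CPM. The call was lost without ischemic Atp6b1v1Cre replicate 1 (-1.49, adjusted p = 0.069) or 4 (-1.46, adjusted p = 0.0631). In females alone the difference had the opposite sign (0.56). Tnfaip3 also passed without Atp6b1v1Cre control replicate 6 (-1.37) or iAKI replicate 5 (-1.39). With run as a covariate 5 of the 10 genes passed, all lower in Atp6b1v1Cre mice, beside 14.7% of all genes in either direction.

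In uninjured kidneys, levels were compared between genes only as CPM per kilobase of exon. The length merges all annotated exons of a gene, such as 12061 bases for Nfkb1 and 3072 for Rela. The order of the genes depends on this choice of length. In male Hoxb7Cre controls at 5.5 months Nfkbia had the highest level, 29.7 ± 12.64 CPM per kilobase (SD, n = 4). Rela followed at 21.1 ± 4.34, and the libraries of these 2 genes overlapped. Nfkbiz (7.58 ± 1.49), Nfkb2 (7.54 ± 0.590) and Nfkb1 (6.66 ± 0.569) were next, within their spread of each other. Tnfaip3 (2.90 ± 0.773) and Relb (2.67 ± 0.879) also lay within their spread. Bcl3 (1.29 ± 0.466) and Rel (0.657 ± 0.233) came after them with overlapping libraries, and Tnf was last at 0.134 ± 0.0594 CPM per kilobase. After volume depletion Nfkbia was at 127 ± 20.3 and Rela at 47.5 ± 10.3 CPM per kilobase in this genotype (SD, n = 3). In male Atp6b1v1Cre controls Nfkbia was at 29.2 ± 14.6, Rela at 27.9 ± 2.87 and Rel at 0.870 ± 0.228 CPM per kilobase (SD, n = 4). Tnf was again the lowest, at 0.122 ± 0.0956.

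The question of which of these genes the tagged segments transcribed more than the whole kidney was addressed by comparing control pulldowns with Total RNA, with sex as a covariate. The contrast also sets newly made RNA against all RNA of the tissue, and segment and age of the RNA cannot be told apart. In Hoxb7Cre pulldowns 6 of the 10 genes were higher at the adjusted p and 3 were DEGs, where 35.6% and 14.6% of all genes were. Rel (log2 difference 1.60, SE 0.20, 95% interval 1.20 to 2.00, adjusted p = 1.28e-09), Nfkbiz (1.18, SE 0.17, 95% interval 0.83 to 1.53, adjusted p = 6.38e-08) and Tnfaip3 (1.16, SE 0.21, 95% interval 0.75 to 1.58, adjusted p = 2.62e-06) were the DEGs. In Atp6b1v1Cre pulldowns 5 genes were higher and Rel was the DEG (1.496, SE 0.20, 95% interval 1.10 to 1.90, adjusted p = 5.80e-09), where 34.4% and 11.3% of all genes were. All genes together had a median difference of 0.11 in each contrast.

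Nfkb1 was the 1 member whose pulldown and Total libraries did not overlap, in Hoxb7Cre (0.89, SE 0.05, 95% interval 0.78 to 1.001, adjusted p = 3.03e-19) and in Atp6b1v1Cre mice (0.81, SE 0.05, 95% interval 0.70 to 0.92, adjusted p = 3.14e-18). Of all genes, 10.4% and 9.22% were above Total without overlap, so 1 of 10 members is near the share of all genes. Its level in Total RNA ran from 42.7 to 59.2 CPM over 16 libraries of 5.5 months (median 52.6). Rel ran from 0.903 to 3.64 CPM in male Total libraries of this age (median 2.39), against 2.42 to 6.40 CPM in male Hoxb7Cre controls. Nfkbia, with a median of 84.5 CPM in Total RNA and a range of 59.0 to 174.7 CPM, was not called in either contrast (-0.10, SE 0.25, 95% interval -0.60 to 0.40, adjusted p = 0.747 and -0.36, SE 0.24, 95% interval -0.85 to 0.12, adjusted p = 0.188). Between the 2 control pulldowns 0 of the 10 genes passed in edgeR (2 at an unadjusted p under 0.05). Of all genes, 4.11% were DEGs and 9.93% passed at the adjusted p. DESeq2 gave 0 DEGs among the 10, where 4.02% of all genes were DEGs. The count of DEGs against Total changed to 1 in Hoxb7Cre and to 3 in Atp6b1v1Cre mice with males alone. Of all genes, 30.8% and 28.5% were then DEGs in either direction.

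**Figure D3:**
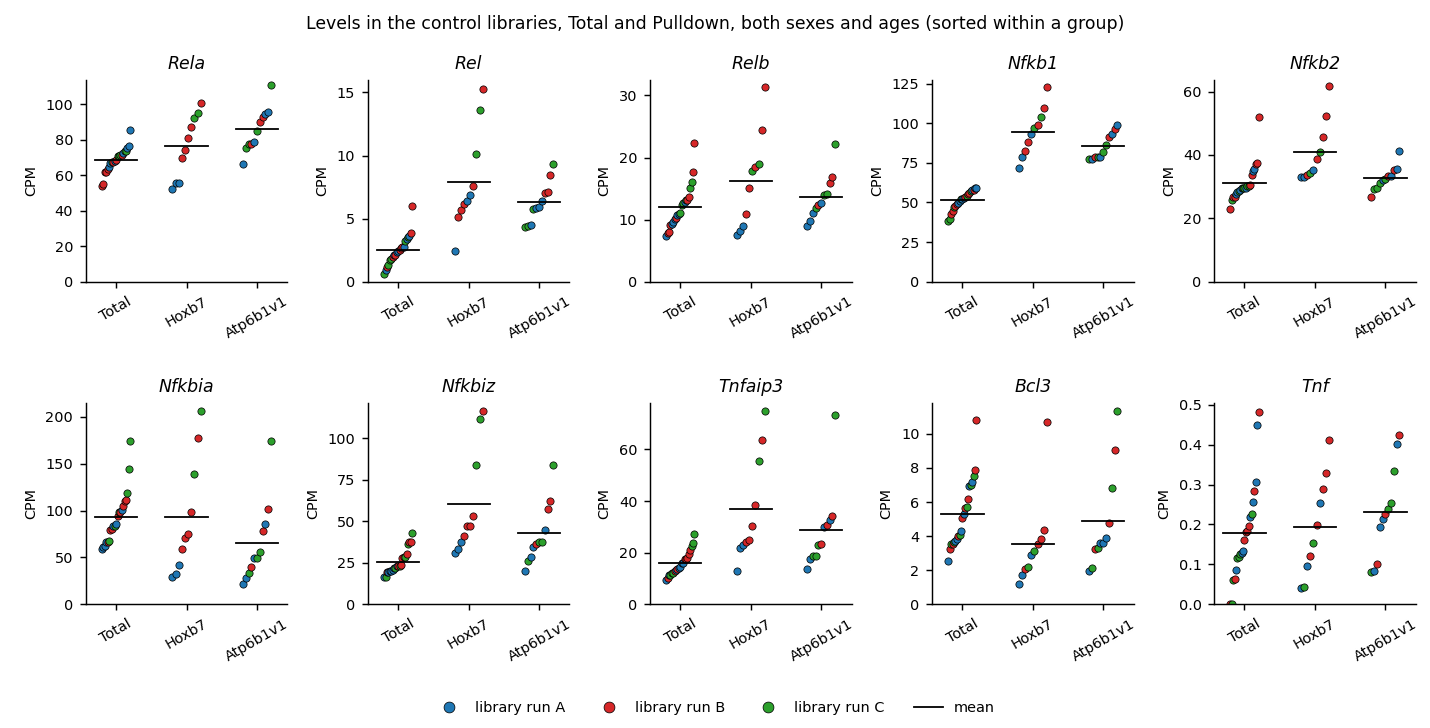
CPM of the 10 genes in the 42 control libraries of both sexes and ages, grouped as Total, Hoxb7Cre pulldown and Atp6b1v1Cre pulldown, with points coloured by library run, sorted within a group, and a line at the mean. Nfkb1 separates both pulldowns from Total without overlap, whereas the points of Nfkbia, Bcl3 and Tnf are mixed across the 3 groups.

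Responses of females were compared with those of males in 43 pulldown libraries of 5.5 months. In Hoxb7Cre mice 6 of the 10 genes responded differently to ischemia, where 10.5% of all genes did, and 6 responded differently to volume depletion, where 16% of all genes did. All 12 responses were lower in females. In Atp6b1v1Cre mice 0 of the 10 genes passed in edgeR after either injury (0 and 2 at an unadjusted p under 0.05), and the percent of all genes called was 0 in both. DESeq2 called 1 and 45 genes there.

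The female Hoxb7Cre libraries themselves showed where these differences lay. Nfkbia was at 41.4, 178, 206 and 139 CPM in female controls, at 26.2, 34.0 and 24.3 CPM after ischemia and at 89.5, 147, 67.7 and 226 CPM after volume depletion. The first control, the only 1 of run A, was near the ischemic libraries and the other 3, of runs B and C, were within the range of the depleted ones. Rel was at 6.90, 15.2, 13.6 and 10.1 CPM in female controls, at 4.51, 4.18 and 2.92 CPM after ischemia and at 8.62, 12.3, 7.47 and 54.3 CPM after volume depletion. Only replicate 5 of the depleted females lay above the controls. Tnfaip3 was at 23.0, 63.7, 74.8 and 55.6, 14.7, 18.2 and 13.8 and 43.8, 77.4, 36.8 and 227 CPM in the same groups. Here too replicate 5 was far above the other depleted females.

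With library run as a covariate, which sets 1 run effect for all groups, 12 of the 40 differences passed again, with Bcl3 after volume depletion in place of Tnfaip3 (-1.58, adjusted p = 0.0549). In Hoxb7Cre mice 10.7% of all genes passed after ischemia and 17.5% after volume depletion. With run A alone in both sexes, 0 of the 40 passed, where female Hoxb7Cre controls were down to 1 library and 0% of all genes passed after ischemia and 0.0236% after volume depletion. The 12 differences were then smaller and still negative, such as -1.49 for Rel after ischemia and -0.74 for Nfkb2 after volume depletion. A run effect that differed between the sexes was not tested. Female vAKI replicate 5 also stood apart from the other 3 females in the genes that volume depletion changed in males: the mean log2 level of 2035 raised minus 1443 lowered genes, relative to same-sex controls, was 1.43 in replicate 5 and -0.67, 0.24 and -0.41 in replicates 1, 2 and 3. The only female control of run A was at -0.84, below all 4 of them. Male vAKI libraries were at 2.44 to 2.62 by that measure, which was built from them.

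Female Atp6b1v1Cre mice showed the response to volume depletion in every library of this group for several of the genes. Tnfaip3 was at 32.8, 17.5, 30.6 and 18.9 CPM in female controls and at 268, 136 and 159 CPM after volume depletion, with no overlap. Nfkbiz was at 44.9, 28.7, 62.1 and 37.6 CPM and then at 366, 218 and 257 CPM, and Rel went from 6.39, 5.88, 7.03 and 5.79 CPM to 47.8, 37.6 and 27.0 CPM. All values of depleted mice were above all control values of the same gene. The share of all genes with this pattern was not counted in females, so it is not shown to be particular to these genes. In the fit of females alone, the log2 fold changes were 2.91 for Tnfaip3 (adjusted p = 0.0024), 2.70 for Nfkbiz (adjusted p = 0.00633), 2.58 for Rel (adjusted p = 0.00341), 1.86 for Nfkbia (adjusted p = 0.0138) and 1.51 for Relb (adjusted p = 0.00895). The female minus male difference was 1.46 for Tnfaip3, with a 95% interval of 0.29 to 2.63 and an adjusted p of 0.531.

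**Figure D4:**
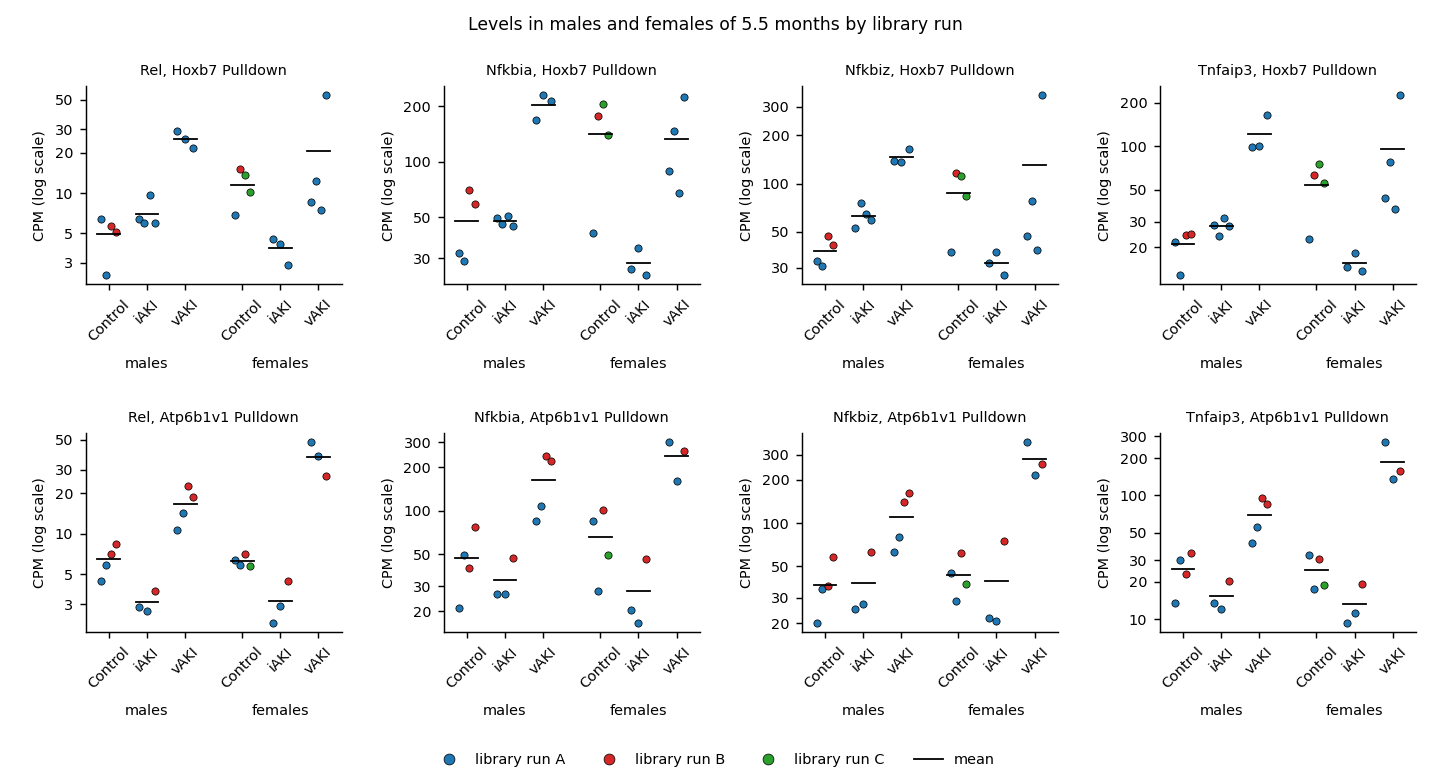
CPM (log axis) of Rel, Nfkbia, Nfkbiz and Tnfaip3 in male and female pulldowns of 5.5 months, by driver and treatment, coloured by library run, with a line at the mean. Female Hoxb7Cre controls of runs B and C lie among the depleted females of run A, and in Atp6b1v1Cre mice the depleted libraries of both sexes lie above the controls.

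Other genes of the pathway were counted in lists taken from knowledge of the pathway, and values in brackets are their log2 fold changes. After volume depletion in Hoxb7Cre males 17.9% of all genes rose and 17.6% fell, against which the counts stand. Among 8 ligands, 1 rose and 2 fell after volume depletion in Hoxb7Cre males. Il1b, an inflammasome-dependent cytokine, rose (2.43 ± 0.44 SE, adjusted p = 0.00019), and Tnfsf13b, a B cell survival factor, fell (-1.12 ± 0.24 SE, adjusted p = 0.000817). Among 9 receptors 3 rose, including Tnfrsf1b, a receptor of TNF (2.76 ± 0.33 SE, adjusted p = 1.76e-06), and Cd40 (2.43 ± 0.40 SE, adjusted p = 7.03e-05). Of 23 adaptors and kinases 6 rose and 3 fell. Birc3, a ubiquitin ligase of the receptor complexes, rose (1.28 ± 0.27 SE, adjusted p = 0.000787), as did Map3k14, the kinase of the noncanonical arm (1.03 ± 0.24 SE, adjusted p = 0.00169), while Ikbkg, the scaffold of the kinase complex, fell (-0.63 ± 0.15 SE, adjusted p = 0.00281). Of 19 other inhibitors 7 rose and 2 fell, with Zc3h12a, an RNase that degrades inflammatory transcripts, first among those that rose (2.47 ± 0.30 SE, adjusted p = 2.21e-06).

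Target genes formed the list with the most calls. After volume depletion in Hoxb7Cre males, 18 of 31 target genes rose and 2 fell, and the list's median log2 fold change was 1.38 beside 0 over all genes. Cxcl2 (5.00 ± 0.70 SE, adjusted p = 9.53e-06) and Cxcl1 (4.78 ± 0.90 SE, adjusted p = 0.000264), chemokines that attract neutrophils, and Gadd45b (4.05 ± 0.48 SE, adjusted p = 1.77e-06), a stress and survival gene, rose most among those with a mean of at least 10 counts. Plau, the urokinase gene (-1.70 ± 0.32 SE, adjusted p = 0.000277), and Ccnd1, which encodes cyclin D1 (-1.33 ± 0.23 SE, adjusted p = 9.16e-05), fell. In Atp6b1v1Cre males 12 target genes rose and 1 fell (median 0.64), where 8.11% of all genes rose and 6.47% fell. By the same count limit the largest rises were those of Cxcl1 (3.07 ± 0.80 SE, adjusted p = 0.0125) and Sele, an endothelial adhesion molecule (3.06 ± 0.33 SE, adjusted p = 1.05e-05). Ccnd1 was the 1 that fell (-1.31 ± 0.21 SE, adjusted p = 0.000327). The other lists had few calls in this genotype: 0 ligands, 1 receptor, 5 of 23 adaptors and kinases and 2 of 19 other inhibitors rose, the latter being Zc3h12a (1.54 ± 0.28 SE, adjusted p = 0.00113) and Tnip1, which binds the Tnfaip3 protein (0.73 ± 0.23 SE, adjusted p = 0.0382).

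After ischemia 3 target genes rose in each genotype, and 1 fell in Atp6b1v1Cre mice, with list medians of 0.41 and 0.16. Of all genes, 3.34% rose in Hoxb7Cre and 3.77% in Atp6b1v1Cre males, and with 31 genes a count of 3 is not far from these shares. Lcn2, the NGAL gene and a known marker of tubule injury, rose in Hoxb7Cre (2.78 ± 0.63 SE, adjusted p = 0.0107) and in Atp6b1v1Cre males (4.41 ± 0.71 SE, adjusted p = 0.00107). Tnfrsf1b (1.74 ± 0.31 SE, adjusted p = 0.00237) and Tlr2 (1.05 ± 0.25 SE, adjusted p = 0.015), a receptor for microbial and damage signals, were the 2 of 9 receptors that rose in Hoxb7Cre males. Ccl2, a monocyte chemokine (1.73 ± 0.52 SE, adjusted p = 0.0396), and Tnfrsf1a, the main receptor of TNF (0.68 ± 0.14 SE, adjusted p = 0.0042), rose in Atp6b1v1Cre males.

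**Figure D5:**
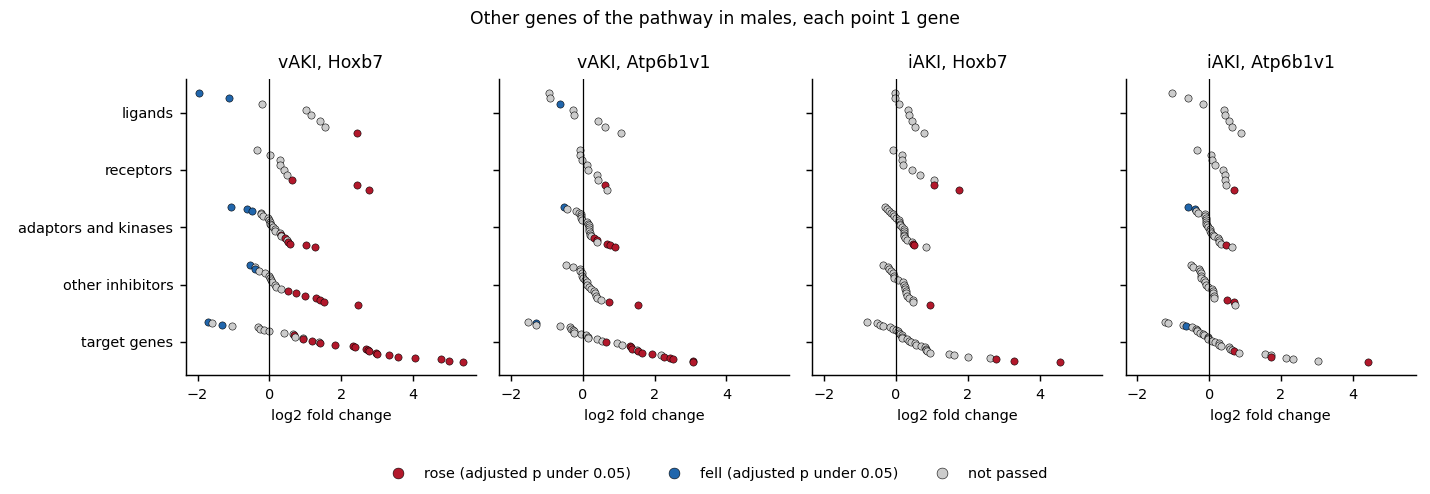
Log2 fold change of each gene of the 5 pathway lists in males after ischemia and after volume depletion of each genotype, red where a gene rose and blue where it fell at an adjusted p under 0.05, grey otherwise. Among target genes after volume depletion in Hoxb7Cre mice 18 points are red, Cxcl2 at 5.00 among them, and 2 are blue.

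Markers of other cells were measured beside these results, since leukocytes also use the pathway. The summed level of 13 macrophage markers was 59.1 to 90.0 CPM in male Hoxb7Cre controls and 66.4 to 77.6 CPM after volume depletion, where 5 of the 13 rose and 3 fell. The sum in Atp6b1v1Cre males was 148 to 202 CPM in controls and 94.6 to 164 CPM after volume depletion, where 0 rose and 1 fell. No macrophage marker was at 0 in any of these groups. The 7 neutrophil markers summed to 0.375 to 1.26 CPM in Hoxb7Cre controls, 1.40 to 3.26 CPM after ischemia and 0.651 to 0.906 CPM after volume depletion. The 10 lymphocyte markers summed to 2.62 to 3.25 and 2.76 to 3.47 CPM in Hoxb7Cre controls and depleted mice. The highest lymphocyte sum of depleted mice was above the control range. The part of leukocytes in the rise of the members was not tested. In Atp6b1v1Cre males neutrophil markers summed to 1.61 to 2.81 CPM in controls and 0.463 to 2.99 CPM after volume depletion, and lymphocyte markers to 8.87 to 18.5 and 3.98 to 6.46 CPM, where 3 of 10 fell. Elane, a neutrophil granule protease, was at 0 in every depleted male Hoxb7Cre library, and Mpo and Retnlg, other neutrophil genes, were at 0 in every depleted male Atp6b1v1Cre library.

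In Hoxb7Cre males the summed level of 7 endothelial markers was higher after both injuries. It was 125 to 249.5 CPM in controls and 257 to 309 CPM after ischemia, where 1 of 7 rose. After volume depletion it was 301 to 402 CPM, where 3 of 7 rose. In Atp6b1v1Cre males 1 of 7 rose and 1 fell after volume depletion. The part of endothelial cells in the result was not tested. Several defining genes of the tagged cells fell, depending on injury and genotype. All 5 principal cell markers fell after either injury in Hoxb7Cre males, from a sum of 2608 to 3322 CPM in controls to 1050 to 1158 CPM after volume depletion. Of 6 intercalated cell markers 4 fell after volume depletion and 1 after ischemia in these mice. In Atp6b1v1Cre males 3 of 6 intercalated cell markers fell after volume depletion, from a sum of 727 to 980.4 CPM to 476 to 629.8 CPM. After ischemia 1 of the 6 rose and 0 fell in Atp6b1v1Cre males. In controls all 5 principal cell markers were higher in Hoxb7Cre pulldowns than in Total RNA, 4 of 6 intercalated cell markers were higher and 1 lower in Atp6b1v1Cre pulldowns, and 7 of 7 endothelial markers were lower in both. Hoxb7Cre pulldowns had 3 intercalated cell markers higher and 2 lower. Of 13 macrophage markers 6 were higher and 2 lower in Atp6b1v1Cre pulldowns than in Total RNA, and 0 were higher and 8 lower in Hoxb7Cre pulldowns. Of 10 lymphocyte markers 5 were higher and 0 lower in Atp6b1v1Cre pulldowns, and 0 were higher and 6 lower in Hoxb7Cre pulldowns. Of 7 neutrophil markers 0 were higher in either, with 3 lower in Atp6b1v1Cre and 4 lower in Hoxb7Cre pulldowns.

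For each member, the genes with the most similar pattern were found among 15126 genes by the root mean square difference of mean-centred log2 CPM over the means of the 6 male groups. For Rel the nearest gene was another member, Tnfaip3 (0.119). For Tnfaip3 the nearest were Elmsan1 (0.0454) and Zc3h12a (0.101), and for Nfkbia they were Cfap53 (0.122) and Zc3h12a (0.123). The nearest genes of the others were Poldip3 for Rela (0.0581), Smad1 for Relb (0.0794), Tbp for Nfkb1 (0.0238), Nbl1 for Nfkb2 (0.0485), 1700061G19Rik for Nfkbiz (0.0878), Oasl1 for Bcl3 (0.116) and Ndrg4 for Tnf (0.170). These are descriptions over 6 means that rest on 22 libraries.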

How the data were processed

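RNA was measured in 69 libraries prepared with an Illumina TruSeq RNA kit, 48 from RNA pulled down by its 4-TU tag and 21 from total RNA of whole kidneys. The authors deposited raw read counts per gene, not normalized. The submitters' processing notes name CASAVA 1.8.2, Trimmomatic 0.36, STAR 2.5.3a, HTSeq 0.6.1p2 and the mm10 build. The gene annotation is not given in the sources used here. Reads of overlapping genes cannot be assigned by such counting.

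Counts were tested with edgeR 4.0.16 (R 4.3.3), quasi-likelihood fits with TMM scaling, over 21175 genes with at least 2 counts in all 69 libraries together. Males of 5.5 months entered 1 fit with 6 groups, all control libraries another with sex as a covariate, and pulldowns of both sexes another with sex by group terms. P-values were adjusted over all genes by the Benjamini-Hochberg method, with a threshold of 0.05 and, for DEGs, a log2 fold change of 1. CPM values use the TMM scaled library sizes. The fits were tested on simulated data. DESeq2 1.42.0, other filters and scalings, a library run covariate, single sexes and leaving out each library were tried.

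The members, lists and tests were chosen with earlier results of these data known. All 10 members are named in every comparison, and of each list at most the 3 highest and 3 lowest changes among genes that passed with a mean of at least 10 counts. Promoters came from RefSeq (GRCm38.p6) and exon lengths from GENCODE. Floors of 3 counts and intervals for counts cover counting error only. Replicate numbers did not pair the male pulldown libraries, and a pairing of control pulldown with Total libraries was not tested.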

Additional observations from a re-analysis of the deposited data

Results flagged for a closer look

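Among 90 sets of 4 to 10 libraries of a member in 1 group, 7 held a library far from the others by Dixon's criterion at 95%, which chance meets in about 1 of 20 sets (4.5 of 90). Replicate 6 of male Hoxb7Cre iAKI was at 9.59 CPM of Rel, where the other 3 were at 5.92 to 6.38, and at 7.70 CPM of Bcl3, where they were at 4.80 to 5.12. Replicate 5 of female Hoxb7Cre vAKI was at 54.3 CPM of Rel (others 7.47 to 12.3) and at 356 CPM of Nfkbiz (others 38.6 to 78.0). Female Total replicate 12 was at 52.0 CPM of Nfkb2 (others 28.7 to 37.0) and at 10.8 CPM of Bcl3 (others 2.55 to 4.09). Male Hoxb7Cre control replicate 5 was at 38.6 CPM of Nfkb2 (others 32.9 to 33.6).

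The response of Rel to ischemia differed between the genotypes by -1.58 on the log2 scale, Atp6b1v1Cre minus Hoxb7Cre, by the test of the difference. In Hoxb7Cre mice the log2 response to ischemia differed between females and males by -2.09 for Rel, -1.61 for Relb, -0.79 for Nfkb1, -2.35 for Nfkbia, -2.19 for Nfkbiz and -2.25 for Tnfaip3 (edgeR adjusted p from 0.0111 to 0.0495). The response to volume depletion differed by -1.23 for Rela, -1.85 for Relb, -0.58 for Nfkb1, -0.95 for Nfkb2, -2.20 for Nfkbia and -1.71 for Tnfaip3 (edgeR adjusted p from 0.0125 to 0.0389). All 12 were lower in females. With library run as a covariate 12 differences passed, and with run A alone, which left 1 female control, 0 did, where the percent of all genes called was 0 and 0.0236.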

How the results depend on the processing

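Of 2237 values recomputed under other settings, 2102 kept their side of the threshold, 76 no longer passed, 53 newly passed and 6 turned in sign where one of the fits made a call. Another 147 changed sign with no call in either fit, and are among the 2102. Leaving out each library in turn gave 7 to 8 DEGs among the 10 genes after volume depletion in Hoxb7Cre and 4 to 6 in Atp6b1v1Cre males. Against ischemia, volume depletion gave 6 to 8 and 4 to 6 DEGs. Ischemia gave 0 to 0 DEGs in Hoxb7Cre and 0 to 1 in Atp6b1v1Cre males, and the genotypes differed in 0 to 2 genes after ischemia and 0 to 2 after volume depletion.

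With females only, the counts became 0 for volume depletion (8 in males) and 1 for ischemia (0 in males) in Hoxb7Cre mice, 3 for the 2 injuries against each other in Hoxb7Cre mice, 0 for ischemia in Atp6b1v1Cre mice and 0 for the genotypes after ischemia, where all genes gave 0.0992%, 2.08%, 2.61%, 1.15% and 0% calls. Both sexes together gave 5 for volume depletion in Hoxb7Cre mice and 0 for the genotypes after ischemia, beside 4.56% and 2.76% of all genes. In females the values of Rela (-0.049) and Nfkbia (-0.092) after volume depletion and of Nfkbia after ischemia (-2.32) in Hoxb7Cre mice turned. So did Tnf between the injuries in Atp6b1v1Cre mice (1.63) and Rel between the genotypes after ischemia (0.56). Of these, Nfkbia after ischemia and Tnf passed in the fit of females alone (edgeR adjusted p = 0.0318 and 0.0425).

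Library run as a covariate gave 2 genes for ischemia in Hoxb7Cre, 0 for ischemia in Atp6b1v1Cre, and 5 and 7 genes for the genotypes after ischemia and volume depletion, where 4.24%, 3.45%, 14.7% and 12.5% of all genes were called. Run A alone, chosen after seeing the data, gave 1, 0, 5 and 5 in the same order, where 3.23%, 3.97%, 15.3% and 14.7% of all genes were called. For the sexes, run A alone left 1 female Hoxb7Cre control. DESeq2 gave 2 genes for the genotypes after ischemia, where 13.5% of all genes were called. Against Total RNA, males only gave 1 (Hoxb7Cre) and 3 (Atp6b1v1Cre) DEGs, beside 30.8% and 28.5% of all genes. No fold threshold gave 6 and 5, beside 66.6% and 63.8%. The causes of these changes were not tested.

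Replicate numbers are shared across groups, but libraries of the same number did not deviate together (mean correlation -0.08 over 6 pairs in Hoxb7Cre and -0.11 over 2 pairs in Atp6b1v1Cre males). A replicate block gave 0 DEGs for ischemia in Atp6b1v1Cre mice, 0 genes for the genotypes after ischemia, 0 of 40 sex differences, and 6 and 6 DEGs for volume depletion in the 2 genotypes. Under the block, 0% of all genes were called for ischemia in Atp6b1v1Cre mice and for the genotypes after ischemia, and at most 0.00472% in the sex contrasts. Male Atp6b1v1Cre control and iAKI libraries share no number. The member counts of 0 therefore say nothing about the members. For volume depletion 11% (Hoxb7Cre) and 10.5% (Atp6b1v1Cre) of all genes were called. Rel after ischemia in Atp6b1v1Cre mice was then 0.051. Depth limits Tnf most, with 0 to 19 counts per male pulldown library.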
